A study of Mus musculus with 12 samples.

Results

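The 10 genes described here are the immediate early genes Fos, Fosb, Jun, Junb, Jund, Egr1, Atf3, Ier2 and Ier3, together with Myc. They were taken by gene symbol from a table of 17432 genes measured by RNA-Seq in mouse liver, and all 10 were found there. Liver RNA came from 12 male wild-type C57BL/6J mice of 8 to 10 weeks of age, 6 sedentary and 6 exercised. Both groups went through 3 days of daytime feeding with treadmill acclimation, were refed for 3 hours on the test day and then lost access to food, so that sedentary mice were also without food during the bout. The exercised mice ran at 14 m/min for 3 hours, and livers of both groups were collected together at the end of the bout, the only time point. Libraries held 18745379 to 19324461 estimated counts.

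The genes carry the identifiers 14281 (Fos), 14282 (Fosb), 16476 (Jun), 16477 (Junb), 16478 (Jund), 13653 (Egr1), 11910 (Atf3), 15936 (Ier2), 15937 (Ier3) and 17869 (Myc). In the GENCODE annotation of GRCm38, Fos is at chr12:85473890-85477273, Fosb at chr7:19302696-19310051, Jun at chr4:95049034-95052222, Junb at chr8:84974484-84978718, Jund at chr8:70698949-70700616, Atf3 at chr1:191170296-191218039, Ier2 at chr8:84661331-84662852, Ier3 at chr17:35821684-35822923 and Myc at chr15:61985391-61990374. One library stood apart from its group before any result: Exercise replicate 1 had 13.0 CPM of cardiac muscle markers in all, where the other exercised livers had 0.58 to 1.39 CPM and sedentary livers 11.7 to 25.2 CPM.

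Immediate early genes are transcribed within minutes of a signal, without the need for new protein, and their RNAs are short-lived. Kinase cascades act on factors already bound at their promoters, among them the serum response factor with its ELK partners and CREB. Fos and Jun proteins pair through leucine zippers to form the AP-1 transcription factors, which bind DNA as dimers. MYC, which pairs with MAX, drives genes of ribosome formation and growth, and in liver it is known for its rise in regeneration and after insulin or feeding.

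Fos, Egr1, Junb and Ier2 were higher, and Myc was lower, in exercised than in sedentary livers. Of the 10 genes, 9 had enough counts to be tested, and these 5 had an adjusted p below 0.05 by the quasi-likelihood test of edgeR (Benjamini-Hochberg over 12344 genes). Over all genes tested, 42.4% passed in either direction, 21.1% higher and 21.3% lower, so that a call by itself does not set a gene apart in these livers. Jun, Jund, Atf3 and Ier3 did not pass, and Fosb was too low to test. Fos had enough counts through the exercised livers alone, so its call is not separate support. In CPM scaled between libraries, the levels of Fos, Egr1, Junb and Ier2 did not overlap between the groups. This was the case in 22.3% of all genes tested, and Ier2 did overlap on the FPKM scale.

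**Figure D1:**
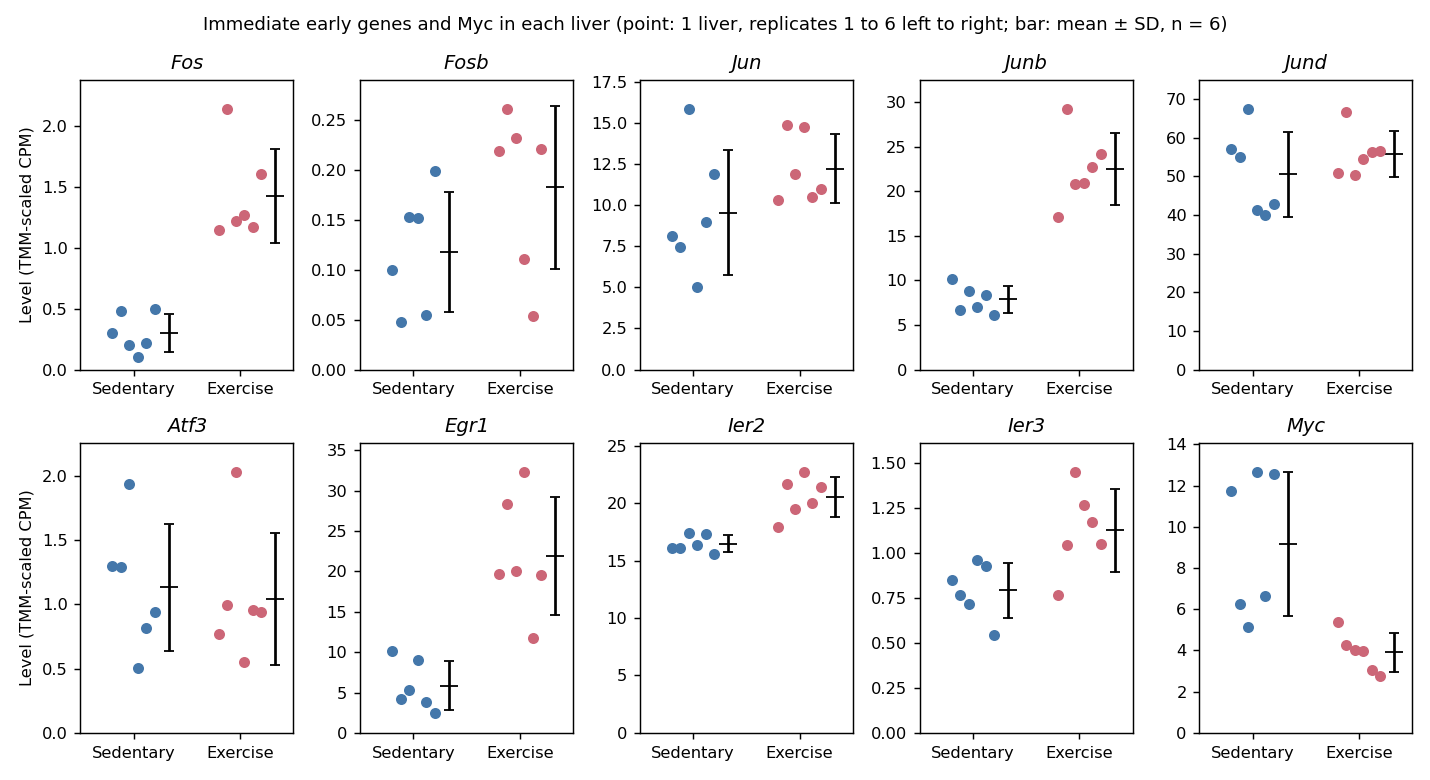
Level of each gene in CPM (counts-per-million, scaled between libraries by the TMM method) in each liver, with the mean and SD of each group of 6 beside the points. Fos, Junb, Egr1 and Ier2 were higher in each exercised liver than in each sedentary liver, Myc was lower in 5 of the 6, and the groups overlapped in the other 5 genes.

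Fos, which encodes the founding partner of Jun in AP-1, showed the largest fold change of the 9 genes tested, ahead of Egr1, although Egr1 was ahead without Sedentary replicate 4 and with limma on log2 FPKM. In sedentary livers it was close to the detection limit, with 2 to 10 counts per library and a level of 0.101 to 0.497 CPM (median 0.259). In exercised livers the level was 1.15 to 2.14 CPM (median 1.24), from 21 to 41 counts. Each exercised liver was therefore above each sedentary liver, and the highest value came from Exercise replicate 2. The fold change of Fos was 4.65 (95% confidence interval 3.03 to 7.14, log2 scale 2.22 ± 0.29 SE, edgeR adjusted p = 1.32e-05). A two-sided exact permutation test on log2(CPM + 0.5) gave p = 0.00216, the smallest p that 6 livers against 6 allow. All 6 exercised but only 2 sedentary libraries reached 10 counts, so Fos entered the test through the exercised livers. A gene that enters in this way is more likely to differ, so this call is not separate support.

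Fosb, the closest relative of Fos, remained at the detection limit. It had 1 to 4 counts in sedentary and 1 to 5 counts in exercised libraries, with 14 and 20 counts over the 6 libraries of each group. A difference in Fosb was not detectable at this depth. Without the filter on low counts, the log2 fold change of Fosb was 0.60 (edgeR adjusted p = 0.405).

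The promoters of the Fos and Jun family genes are shown because these genes are switched at the promoter by factors already bound there. Of the 10 genes, 7 were matched to a RefSeq promoter (GRCm38.p6), namely Fos, Fosb, Jun, Junb, Jund, Atf3 and Ier3. The start is that of RefSeq, which for Junb and Jund lies upstream of the GENCODE span given above and for Atf3 lies inside it. The 150 bases before the transcription start are printed 5′ to 3′ on the strand of the gene for Fos and Junb, which rose, and for Jun and Atf3, which did not pass the test. Capitals mark the letters TGACG, the core of the cyclic AMP response element, on either strand, as well as CCAAT and TATAAA on either strand.
Fos (chr12:85473740-85473889, plus strand): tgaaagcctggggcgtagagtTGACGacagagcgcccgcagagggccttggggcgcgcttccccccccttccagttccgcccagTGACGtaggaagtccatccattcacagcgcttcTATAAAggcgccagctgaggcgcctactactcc
Junb (chr8:84978749-84978898, minus strand): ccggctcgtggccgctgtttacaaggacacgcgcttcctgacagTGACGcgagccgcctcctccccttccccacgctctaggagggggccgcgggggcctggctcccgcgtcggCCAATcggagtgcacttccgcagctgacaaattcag
Jun (chr4:95052223-95052372, minus strand): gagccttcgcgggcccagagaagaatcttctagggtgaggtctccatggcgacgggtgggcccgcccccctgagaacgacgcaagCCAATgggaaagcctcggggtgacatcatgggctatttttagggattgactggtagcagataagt
Atf3 (chr1:191183334-191183483, minus strand): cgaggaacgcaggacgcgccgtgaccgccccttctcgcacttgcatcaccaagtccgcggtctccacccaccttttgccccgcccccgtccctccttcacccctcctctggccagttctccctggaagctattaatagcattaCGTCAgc
The Fos promoter held TGACG at 129 and at 66 bases before the start and TATAAA at 33. The Junb promoter held TGACG at 106 bases and CCAAT at 36 bases before the start. The Jun promoter held CCAAT at 65 bases and no TGACG, whereas the Atf3 promoter held TGACG on the opposite strand, 7 bases before the start. Fosb, which was not detectably different, also held TGACG, at 60 bases, while the windows of Jund and Ier3 held no TGACG. Of all 32851 promoter windows of this length, 13.3% held TGACG, 24.5% held CCAAT and 7.57% held TATAAA. None of the 7 windows held the full palindrome TGACGTCA (1.36% of all windows, and a match of TGACG by construction), TGANTCA (the AP-1 site, 4.24%), CACGTG (the MYC-MAX site, 4.3%) or a serum response element (CArG box, 0.916%). These are matches of letters in a short window, not measured binding sites. A site that differs from these letters or lies farther upstream would be missed.

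Among the 3 Jun genes, Junb rose while Jun and Jund did not pass the test. Junb, which can act as a weaker activator than Jun, was at 6.16 to 10.1 CPM (median 7.72) in sedentary livers and at 17.1 to 29.2 CPM (median 21.8) in exercised livers. The lowest exercised liver was thus well above the highest sedentary one. Junb rose 2.86-fold (95% confidence interval 2.35 to 3.49, log2 scale 1.52 ± 0.14 SE, edgeR adjusted p = 7.21e-07). Junb overlaps Prdx2 on the opposite strand, and whether reads were counted by strand is not given in the sources used here. Prdx2 itself was at 99.9 ± 7.53 CPM (SD, n = 6) in sedentary and 101 ± 4.28 CPM in exercised livers, a log2 difference of 0.013 (edgeR adjusted p = 0.883).

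Jun, the prototype of the family, was at 4.99 to 15.9 CPM (median 8.54) in sedentary livers and at 10.3 to 14.9 CPM (median 11.4) in exercised livers. The exercised livers lay inside the range of the sedentary livers, which ran from Sedentary replicate 4 to Sedentary replicate 3. For Jun the fold change was 1.28, with a 95% confidence interval from 0.897 to 1.83 (edgeR adjusted p = 0.251), an interval that holds both no change and a rise. Without Sedentary replicate 3, which had the highest level, the log2 fold change of Jun went from 0.36 to 0.56 and passed the test (adjusted p = 0.0279). Jun overlaps the antisense gene Junos, and Jund overlaps the antisense gene Gm11175, and neither was analysed here.

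Jund, which is generally held at a steadier level than other Jun genes, was at 40.1 to 67.5 CPM (median 48.9) in sedentary livers and at 50.5 to 66.8 CPM (median 55.4) in exercised livers. The ranges overlapped almost entirely. The fold change of Jund was 1.10 with a 95% confidence interval from 0.917 to 1.33 (edgeR adjusted p = 0.388), which leaves out a change as large as that of Junb.

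The makeup of the Jun transcripts therefore differed between the groups. FPKM values, which are scaled for transcript length and can be compared between genes, were used for this measure, which was chosen after the values were seen and is given without a test. Junb made up 14.5% to 21.5% (median 17.5%) of the summed Jun, Junb and Jund FPKM in sedentary livers and 31.0% to 36.5% (median 35.1%) in exercised livers. The share of Jund was 65.3% to 76.2% (median 70.8%) in sedentary and 52.8% to 58.4% (median 54.0%) in exercised livers. The share of Jun was 7.91% to 16.9% in sedentary and 9.32% to 13.1% in exercised livers and overlapped. Jund remained the most abundant of the 3 in both groups.

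**Figure D2:**
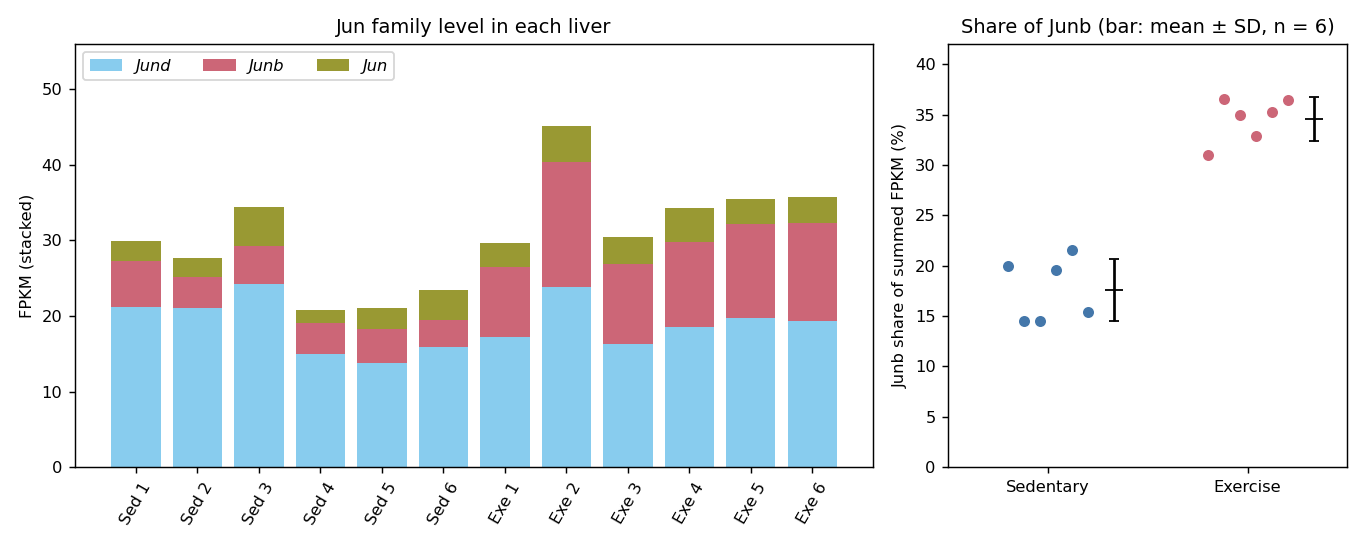
Left, FPKM of Jund, Junb and Jun stacked for each liver (Sed, sedentary; Exe, exercised), and right, the percentage of the sum that was Junb, with the mean and SD of 6 livers. The share of Junb was at most 21.5% in sedentary and at least 31.0% in exercised livers.

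Egr1, a zinc finger transcription factor induced through the serum response factor and ELK proteins, was at 2.48 to 10.1 CPM (median 4.80) in sedentary livers and at 11.7 to 32.3 CPM (median 19.8) in exercised livers. The groups did not overlap, but Exercise replicate 5 and Sedentary replicate 1 lay close to each other. Egr1 rose 3.74-fold (95% confidence interval 2.18 to 6.42, log2 scale 1.90 ± 0.35 SE, edgeR adjusted p = 0.00135). Sedentary livers varied widely in Egr1, with a coefficient of variation of 52.2%, against 33.4% in exercised livers. Its log2 fold change was 1.75 to 2.13 when livers were left out singly.

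Atf3, a stress-induced member of the ATF and CREB family that often acts as a repressor, did not follow Fos and Egr1. It was at 0.504 to 1.94 CPM (median 1.12) in sedentary livers and at 0.551 to 2.03 CPM (median 0.949) in exercised livers, from 10 to 38 counts per library. The 2 ranges were nearly the same. The fold change of Atf3 was 0.912 with a 95% confidence interval from 0.574 to 1.45 (edgeR adjusted p = 0.772). Its log2 fold change of -0.13 changed sign without Sedentary replicate 3 (0.085) or without Exercise replicate 4 (0.0011), and it was -0.42 without Exercise replicate 3, which had the highest level.

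Ier2, a nuclear protein of the early growth response, changed little in size but evenly. It was at 15.5 to 17.4 CPM (median 16.2) in sedentary livers and at 17.9 to 22.7 CPM (median 20.7) in exercised livers. The groups did not overlap in CPM, where the coefficient of variation was 4.43% in sedentary livers, the lowest of the 10 genes. On the FPKM scale they did overlap. Exercise replicate 1, at 11.68 FPKM, lay below Sedentary replicates 2 and 3, at 11.86 and 11.98 FPKM. The separation of Ier2 therefore depends on the scaling between libraries. Ier2 rose 1.25-fold (95% confidence interval 1.14 to 1.37, log2 scale 0.32 ± 0.065 SE, edgeR adjusted p = 0.00071). Scaling by library size alone, which moved the median of all genes to -0.098 on the log2 scale, gave Ier2 a log2 fold change of 0.23 (adjusted p = 0.0141).

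Ier3, which modulates cell survival under stress, was at 0.546 to 0.958 CPM (median 0.807) in sedentary livers and at 0.766 to 1.45 CPM (median 1.11) in exercised livers. Exercise replicate 1 was the only exercised liver inside the sedentary range, and the other 5 were above it. The fold change of Ier3 was 1.42 with a 95% confidence interval from 1.05 to 1.90, from 11 to 25 counts per library. Its adjusted p of 0.0546 from edgeR's test missed the threshold. The call was gained without Exercise replicate 1 (adjusted p = 0.0266), without Sedentary replicate 4 (adjusted p = 0.0472) and with a filter of 10 counts in every library (adjusted p = 0.0437).

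Myc moved opposite to Fos, Egr1 and Junb. Its level was 5.15 to 12.7 CPM (median 9.19) in sedentary livers and 2.76 to 5.36 CPM (median 3.98) in exercised livers. Sedentary replicates 1, 4 and 6 were at 11.8, 12.7 and 12.6 CPM, and Sedentary replicates 2, 3 and 5 were at 6.25, 5.15 and 6.63 CPM. Only Exercise replicate 1, at 5.36 CPM, reached above the lowest sedentary liver. The exercised level of Myc was 0.426 times the sedentary level (95% confidence interval 0.287 to 0.632, log2 scale -1.23 ± 0.26 SE, edgeR adjusted p = 0.00236). The two-sided exact permutation test gave p = 0.00433 for Myc. With each liver left out in turn, the log2 fold change of Myc stayed between -1.35 and -1.12.

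**Figure D3:**
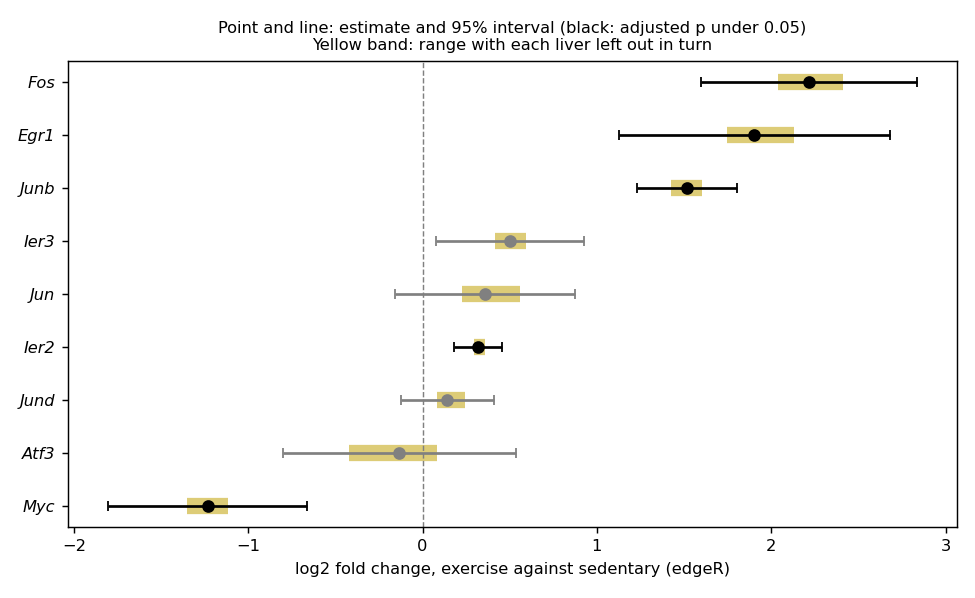
Log2 fold change of the 9 genes tested, exercise against sedentary. The line is the 95% confidence interval derived from edgeR's test, and the band is the range of 12 refits without 1 liver each. The intervals of Fos, Egr1, Junb and Ier2 lay above 0 and that of Myc below 0. The interval of Ier3 also lay above 0, but its adjusted p missed the threshold.

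The order of the levels changed with these shifts. On the FPKM scale, sedentary livers held Jund at 18.5 ± 4.22 (SD, n = 6), Ier2 at 11.5 ± 0.334, Junb at 4.53 ± 0.851, Myc at 4.05 ± 1.58, Jun at 3.14 ± 1.23 and Egr1 at 2.01 ± 1.06. Ier3, Atf3, Fos and Fosb followed at means of 0.787 FPKM or less. In this order the ranges of neighbours were separate between Jund and Ier2, between Ier2 and Junb, and between Atf3 and Fos, and overlapped elsewhere. In exercised livers Jund was at 19.2 ± 2.62 FPKM and Ier2 at 13.5 ± 1.36 FPKM, followed by Junb at 12.2 ± 2.52 FPKM and Egr1 at 7.02 ± 2.41 FPKM. Jun was then at 3.77 ± 0.697 FPKM and Myc at 1.61 ± 0.38 FPKM, a pair whose ranges were separate, as were those of Jund and Ier2 and of Atf3 and Fosb, while all other neighbours overlapped. By mean, Egr1 went from rank 6 to rank 4 and Myc from rank 4 to rank 6 among the 10 genes, but the range of Egr1 overlapped that of both its neighbours, Junb and Jun, in exercised livers.

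Single livers contributed unevenly to the values. Exercise replicate 2 was the highest exercised liver for 5 of the 10 genes, Fos, Fosb, Jun, Junb and Jund, and the lowest for 0. Exercise replicate 1 was the lowest exercised liver for 5, Fos, Jun, Junb, Ier2 and Ier3, and the highest for Myc. Sedentary replicate 3 was the highest sedentary liver for Jun, Jund, Atf3 and Ier2 and the lowest for Myc. Among sedentary livers, Sedentary replicate 6 was the lowest for Junb, Egr1, Ier2 and Ier3 but the highest for Fos and Fosb.

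**Figure D4:**
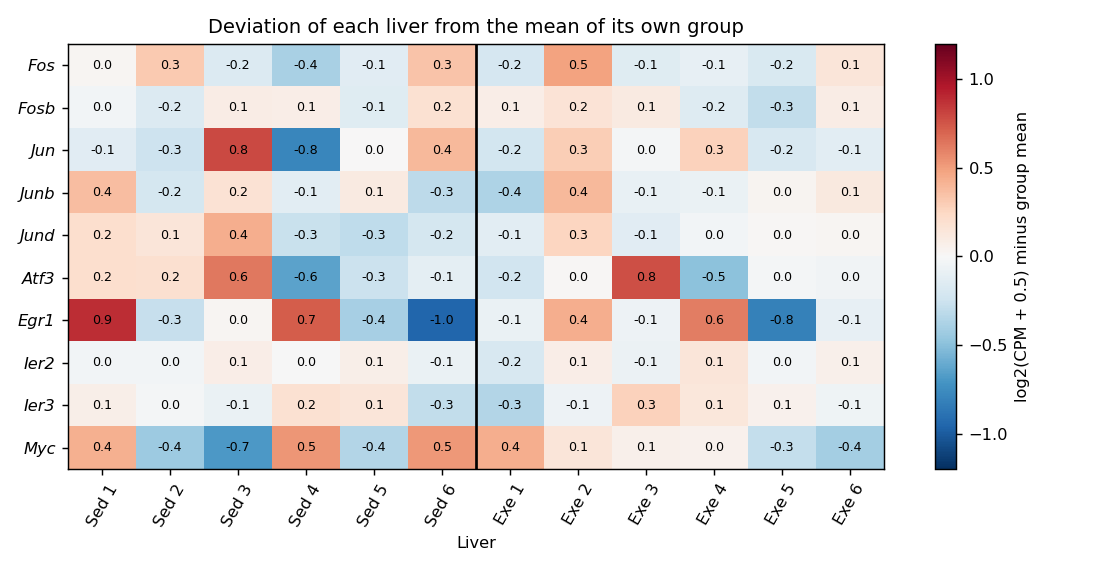
Deviation of each liver from the mean of its own group for each gene, as log2(CPM + 0.5), with red above and blue below the mean. On this scale Egr1, Myc, Jun and Atf3 show the widest spread among sedentary livers, whereas the coefficient of variation in CPM was highest for Fos (53.0%). Fos had only 2 to 10 counts per sedentary library, so this value also holds counting noise. Exercise replicate 2 was the highest exercised liver for the 5 Fos and Jun family genes.

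Within a group, no pair of the 9 genes tested was correlated past the threshold once adjusted for the number of pairs. Over 72 pairs (36 in each group, never pooled), 5 had a Pearson correlation with an exact permutation p under 0.05, and after Benjamini-Hochberg adjustment 0 did (smallest adjusted p = 0.333, exact permutation test). Each p came from 720 orderings of 6 livers, so even a perfect correlation in a single pair could not pass this adjustment. The outcome therefore does not show that the genes varied apart from each other. The correlation of Fos and Junb in exercised livers was r = 0.874 (exact permutation p = 0.00972, adjusted p = 0.333) and rho = 0.829 (exact permutation p = 0.0583, adjusted p = 0.817). It fell to r = 0.440 without the 2 livers farthest from the median of Fos, Exercise replicates 2 and 6, so it rested on these livers. Fos and Jund in exercised livers had r = 0.898 (exact permutation p = 0.025, adjusted p = 0.36), and 0.169 without the same livers. Jun and Egr1 there had r = 0.846 (exact permutation p = 0.0236, adjusted p = 0.36), and 0.413 without Exercise replicates 2 and 4. For Junb and Jund there, r was 0.912 (exact permutation p = 0.0125, adjusted p = 0.333), and 0.776 without Exercise replicates 1 and 2. Jund and Atf3 in sedentary livers had r = 0.923 (exact permutation p = 0.0139, adjusted p = 0.333) and rho = 0.943 (exact permutation p = 0.0167, adjusted p = 0.6), with r = 0.881 without Sedentary replicates 3 and 5.

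Factors that pair with Fos and Jun or share their DNA sites moved as well. Of 17 such genes listed, 13 were tested (Batf, Batf2 and Batf3 had at most 11 counts, and Fosl1 was not analysed here), and 12 rose and 1 fell, with a median log2 fold change of 0.49 against -0.0028 over all genes tested, of which 21.1% rose and 21.3% fell. The small Maf factors Maff and Mafg rose by 2.27 and 0.52 on the log2 scale (edgeR adjusted p of 3.38e-06 and 2.79e-06, in turn). Nfil3, a bZIP repressor tied to the clock, and Fosl2, a Fos relative, rose by 0.92 and 0.67 on the log2 scale (edgeR adjusted p of 1.08e-07 and 7.97e-05, in turn), so that Fosl2 went from 6.48 to 10.3 CPM. The gene that fell was Atf4 (log2 fold change -0.28, adjusted p = 0.00497), named after its value was seen. With scaling by library size alone, 9 of the 13 rose and 1 fell. This list and the lists of related genes below were written with earlier results of these data known. Their shares and medians beside all genes are therefore a description and not a test.

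Of 55 other immediate early and early response genes listed, 46 were tested, and 28 rose, 7 fell and 11 did not pass, so that 76.1% passed beside 42.4% of all genes tested, with a median log2 fold change of 0.56. Cebpb, a bZIP factor of the hepatic acute and fasting responses, rose from 43.2 ± 6.81 to 109 ± 11.7 CPM, by 1.34 on the log2 scale (edgeR adjusted p = 8.69e-08). Nfkbia, the inhibitor that holds NF-kB in the cytoplasm, and the kinase Pim3 rose by 1.00 and 0.98 on the log2 scale (edgeR adjusted p of 1.30e-07 and 7.56e-08, in turn). Csrnp1, a nuclear factor, and Trib1, a pseudokinase that promotes degradation of C/EBP proteins, rose by 0.98 and 0.84 on the log2 scale (edgeR adjusted p of 9.09e-07 and 1.40e-07, in turn). Among genes named after their values were seen, the orphan receptor Nr4a1 rose (log2 fold change 1.88), while the inhibitor of differentiation Id2 and the Notch target Hes1 fell (log2 fold change -1.51 and -1.08). Egr2, Egr3, Nr4a2, Nr4a3, Ier5l, Dusp2, Dusp5 and Arc had at most 14 counts in any library and were not tested, and Egr4 was not analysed here.

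Of 37 genes upstream of the immediate early genes, 19 passed the test (51.4%, beside 42.4% of all genes tested), 12 higher and 7 lower, with a median log2 fold change of 0.083. This median turned to -0.012 with scaling by library size alone, with 9 higher and 9 lower. The factor Creb1 rose by a log2 fold change of 0.61 (edgeR adjusted p = 2.10e-06) and Elk4, a partner of the serum response factor, by 0.70 (adjusted p = 0.000177). The receptor Erbb3 and the kinase Braf rose by 0.74 and 0.38 on the log2 scale (edgeR adjusted p of 9.93e-05 and 0.000189, in turn), and the ribosomal S6 kinase gene Rps6ka1 fell (log2 fold change -0.71, adjusted p = 3.27e-05). These are RNA levels and give no measure of kinase activity.

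Genes of the Myc network and Myc targets were tallied in the same way. Of 17 network genes tested, 9 rose, 1 fell and 7 did not pass (median log2 fold change 0.19), so that 58.8% passed beside 42.4% of all genes tested, and with scaling by library size alone 6 rose and 3 fell. Mxd1, a MAX partner that opposes MYC, rose from 3.12 ± 0.595 to 5.93 ± 0.694 CPM, by 0.93 on the log2 scale (edgeR adjusted p = 2.12e-05). Mga, another MAX partner with repressive function, rose by a log2 fold change of 0.61, and the Myc relative Mycl by 0.86 (adjusted p = 2.12e-05 and 7.18e-05). Mlxip rose by a log2 fold change of 0.95 while its partner Mlx fell (log2 fold change -0.36, adjusted p = 6.37e-07 and 8.59e-05).

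Of 30 genes known as Myc targets, 18 fell, 2 rose and 10 did not pass, so that 66.7% passed beside 42.4% of all genes tested, with a median log2 fold change of -0.23, and with scaling by library size alone 22 fell and 1 rose. Nop58 and Rrp9, which serve small nucleolar RNA complexes, fell (log2 fold change -0.80 and -0.65, adjusted p = 2.58e-06 and 8.25e-05 from edgeR's test). Ppan, a ribosome assembly factor, fell from 15.4 ± 3.47 to 9.19 ± 0.325 CPM (log2 difference -0.75, edgeR adjusted p = 6.17e-05). Shmt1, an enzyme of folate metabolism, fell by 0.53 on the log2 scale (adjusted p = 1.22e-06). The genes that rose were Rcc1, which loads the GTPase RAN (log2 fold change 0.90, adjusted p = 1.35e-05), and Npm1 (log2 fold change 0.26, adjusted p = 0.00446), the latter named after its value was seen.

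**Figure D5:**
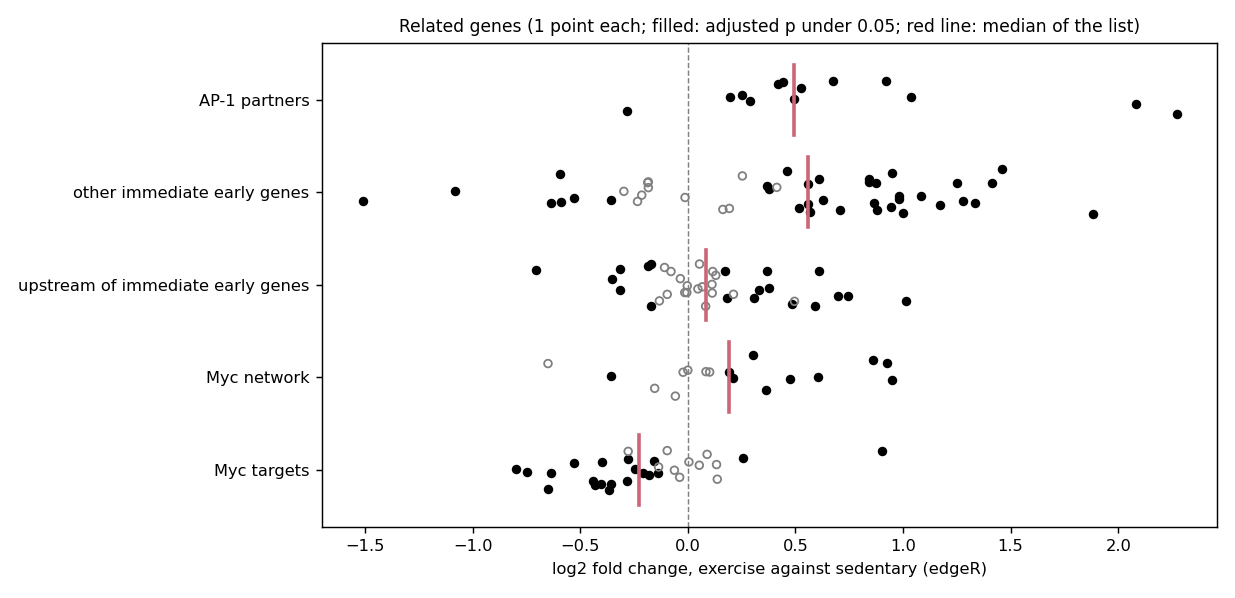
Log2 fold change of each tested gene in 5 lists of related genes, exercise against sedentary, with filled points for an adjusted p under 0.05 and a red line at the median of the list. The medians of the AP-1 partners (0.49) and of the other immediate early genes (0.56) lay above 0, and that of the Myc targets (-0.23) below 0.

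Markers of other cell types were examined because whole liver was sequenced, where fewer cells of a type and less RNA per cell cannot be told apart. Hepatocyte markers dominated all libraries, with a summed level of 132453 to 176449 CPM over 8 genes in sedentary and 164508 to 183821 CPM in exercised livers, and 2 of the 8, Alb and Pck1, rose. Of 8 liver endothelial markers, 4 rose and 1 fell, and their summed level was 272 to 343 CPM in sedentary and 291 to 406 CPM in exercised livers. Of 8 stellate cell markers, 1 rose and 2 fell (177 to 227 and 167 to 244 CPM). The shares that passed were 25% of hepatocyte, 62.5% of endothelial and 37.5% of stellate cell markers, beside 42.4% of all genes tested. By edgeR 0 of 9 macrophage markers passed the test, as was the case with an unadjusted p under 0.05, DESeq2 and limma-voom, and their summed level was 100.4 to 169 CPM in sedentary and 119 to 180.3 CPM in exercised livers. By the same tools 0 of 5 cholangiocyte, 0 of 3 neutrophil and 0 of 2 lymphocyte markers passed, and 0 of 5 erythroid markers (1 at an unadjusted p under 0.05). All 6 cardiac muscle markers tested fell (3 with DESeq2), from a summed 11.7 to 25.2 CPM to 0.58 to 13.0 CPM, the highest exercised value being that of Exercise replicate 1. The part of these cells in the changes of the 10 genes was not tested. Without Exercise replicate 1, where all sedentary livers are above all exercised livers in cardiac markers, the log2 fold changes of the 5 genes were still past the threshold (Fos 2.28, Junb 1.59, Egr1 1.94, Ier2 0.36 and Myc -1.34), which does not separate exercise from cardiac content.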

How the data were processed

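Liver RNA-Seq of 12 mice was used, 6 sedentary and 6 exercised, grouped by the sample labels, which name no individual mouse, so that p-values measure the spread between these samples. The submitters' processing notes name Bowtie2 2.3.4.3, RSEM 1.3.1 and mm10, and the annotation and strand setting are not given in the sources used here. The authors deposited estimated counts per gene, not scaled between libraries (31.3% of them not whole), and FPKM values, scaled by the authors for transcript length and depth.

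The main test was edgeR 4.0.16 (R 4.3.3) on rounded counts, after filterByExpr (minimum count 10) and TMM scaling, by the robust quasi-likelihood method, adjusted by Benjamini-Hochberg over 12344 genes at a threshold of 0.05, with exercise as the only term. The test script was run on simulated counts. Single genes were compared by a two-sided exact permutation test over 924 relabellings of log2(CPM + 0.5), with scipy 1.17.1. Alternatives were RLE, upper quartile and library size scaling, other filters, DESeq2 1.42.0, limma-voom and limma on FPKM (limma 3.58.1), a block for the replicate number, stricter thresholds and leaving out each liver. The genes and lists were chosen with earlier results of these data known. Lists were written from general knowledge, and the text names all 10 genes, the 5 of each list with the smallest p (1 of the AP-1 partners is not reported here), and for Fos, Egr1 and Myc the 3 genes most like each. The Junb share was added after seeing the data. Coordinates are from GENCODE vM21 (GRCm38, the assembly of mm10) and promoters from RefSeq.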

Additional observations from a re-analysis of the deposited data

Results flagged for a closer look

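Each group of 6 livers was checked for 1 liver far from the rest in each of the 10 genes. Of 20 groups checked, 2 had such a liver, where chance gives about 1. In Exercise replicate 2 the level of Jund was 66.8 CPM, and the second highest exercised value was 56.5 CPM (gap over range 0.631). In Exercise replicate 3 that of Atf3 was 2.03 CPM, above a second highest value of 0.992 CPM (gap over range 0.701). Without the first liver the log2 fold change of Jund was 0.086, and without the second that of Atf3 was -0.42, and neither passed the test.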

How the results depend on the processing

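The changes of Egr1, Junb, Ier2 and Myc held their sign and their call in all settings at the same threshold. These were 10 settings that kept all livers and 12 that each left out 1 liver. Fos did so in 9 and 12 of these, since a filter of 10 counts in every library removed it. Its held call is not separate support, because Fos entered the main test through the exercised livers. Leaving out 1 liver gave log2 fold changes of 2.04 to 2.41 for Fos, 1.75 to 2.13 for Egr1, 1.43 to 1.60 for Junb, 0.29 to 0.36 for Ier2, -1.35 to -1.12 for Myc, 0.23 to 0.56 for Jun, 0.41 to 0.59 for Ier3, 0.086 to 0.24 for Jund (0.24 without Sedentary replicate 3, adjusted p = 0.0715) and -0.42 to 0.085 for Atf3. Ier3 at 0.50 passed with at least 10 counts in every library, which tests fewer genes. Fos and Egr1 were at 2.04 and 2.07 without Sedentary replicate 4, at 1.66 and 1.84 with limma on log2(FPKM + 0.1), and at 0.53 and 1.43 on log2(FPKM + 1).

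The calls over all genes were 2603 higher and 2626 lower, but 1767 higher and 3735 lower with scaling by library size alone, 1703 and 3738 with limma on log2(FPKM + 0.1), and 1715 and 3741 on log2(FPKM + 1); the cause was not tested. With a 2-fold minimum there were, by construction, 290 higher and 196 lower, and 3 AP-1 partners, 10 other immediate early genes, 1 upstream gene, 0 Myc network genes and 0 Myc targets, while of the 5 genes called here Ier2 dropped out. At an adjusted p under 0.01, 12 upstream genes passed.

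Equal replicate numbers in the 2 groups were not taken as pairs, since the livers with the same number deviated together by correlations of -0.099 to 0.16 and 2 of 6 matched their own number best. With the replicate block 2490 genes were higher and 2466 lower, Myc had a log2 fold change of -1.18, and the calls of the 9 genes tested did not change.

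Depth limits Fos in sedentary livers, Fosb, Atf3 and Ier3, whose counts were low.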

Other observations

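The genes whose levels followed Fos, Egr1 and Myc most closely from liver to liver were searched among genes whose mean level reached 1 CPM. Group means were subtracted first, so that the difference between the groups did not count. The values are a description over 12 livers, picked as the highest of about 11536 correlations, with no p. For Fos these were Aim2 (r = 0.929), Anxa3 (r = 0.920) and Ctnnal1 (r = 0.889), none of which passed the test between the groups. For Egr1 they were Cxxc4 (r = 0.931), Arl8a (r = 0.877) and Bahcc1 (r = 0.837), of which Bahcc1 fell (edgeR log2 fold change -0.34 with an adjusted p = 0.00454). For Myc they were Hnrnpm (r = 0.942), Zfp799 (r = 0.885) and Ecpas (r = 0.870), none of which passed the test. None of these 9 genes is on the lists above.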
